A study of Mus musculus with 12 samples.

Results

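The genes described here are 9 complement components and receptors: C1qa, C1qb, C1qc, C1ra, C3, C4b, Cfb, C3ar1 and C5ar1. They were chosen by name, and no measured value enters the rule. Earlier results of these data were known when the genes were chosen. Together they are represented by 14 of the 45037 probe sets on the array, where a probe set is the group of short probes that reports 1 transcript. Of the 9 genes, 7 have a probe set of their own. C4b is read only through a probe set that the platform annotation pairs with both C4a and C4b, so it is given below as C4a/C4b. The annotation used here pairs no probe set with C3, which was not analysed here. These 8 measured features were among 14059 tested.

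The data are 12 one-colour Affymetrix arrays of microdissected olfactory epithelium, the sheet of the nose that holds the olfactory sensory neurons, from male wild-type C57BL/6J mice aged 6 weeks. There were 4 groups with 3 biological replicates in each. Lip-C OBX mice received liposomes loaded with clodronate, which phagocytes ingest and die from, and had both olfactory bulbs removed (OBX, bulbectomy, which cuts the axons of the sensory neurons). Lip-C sham mice received the same liposomes and a sham operation. Lip-O OBX and Lip-O sham mice received empty liposomes with bulbectomy or the sham operation. In every group 50 µl was given intranasally on each of 3 days, and 200 µl was injected into the tail vein on the first and the third of them. Surgery fell on the second day, and the tissue was taken 48 h later. The labels name tissue macrophages as the target of the intranasal dose and a part of the blood monocytes as the target of the intravenous dose. The design compared bulbectomy with sham surgery in each liposome group and depleted with non-depleted mice in each surgery group, in a layout of 2 treatments by 2 operations.

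Complement is a cascade of plasma and tissue proteins that tags targets for uptake by phagocytes, recruits leukocytes and can form a membrane pore. In the classical pathway C1q, built of the products of C1qa, C1qb and C1qc, recognises a target together with the proteases C1r and C1s, which cleave C4 and C2. Factor B, from Cfb, serves the alternative pathway, and both routes cleave C3. The released fragments C3a and C5a act on the receptors encoded by C3ar1 and C5ar1. In many tissues, macrophages and microglia are the main source of C1q.

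Signals below are the probe set values of the authors' arrays on a linear scale. Log2 changes are differences of means of log2(signal + 16), which understate changes of dim genes. A feature was called where its Benjamini-Hochberg adjusted p over all 14059 features was under 0.05 in limma's moderated linear model. Signals of different probe sets are not comparable with each other.

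The neuronal identity of the tissue was seen on every array: Omp, the olfactory marker protein of mature sensory neurons, read 6768.5 to 13706.2 on the OBX arrays and 14448.8 to 18212.6 on the sham arrays. The median signal of an array lay between 117.5 and 134.2, and the 40th percentile used as a floor for dim genes lay between 65.3 and 79.3. Of 14 tested macrophage and monocyte markers, 2 were lower in Lip-C sham than in Lip-O sham mice, where 0.832% of all features were lower: Csf1r, the receptor for colony stimulating factor, by -0.83 on the log2 scale (limma adjusted p = 0.0432) and Aif1, a marker of tissue macrophages, by -0.90 (limma adjusted p = 0.0469). With 1 array left out, Csf1r still passed in 3 of 12 fits (without Lip-C OBX replicate 3, Lip-O OBX replicate 1 or Lip-O OBX replicate 3) and Aif1 in 2 of 12 (the same arrays but Lip-O OBX replicate 3), with adjusted p up to 0.135 and 0.13 otherwise. Both calls were also lost with no filter on dim probe sets (0.0777 for Csf1r and 0.0827 for Aif1), with all probe sets of a gene averaged (0.104 and 0.051) and without moderation (0.0697 and 0.0741), and that of Aif1 with quantile normalization (0.054). None of the 14 passed between Lip-C OBX and Lip-O OBX mice, where 2 had an unadjusted limma p under 0.05.

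The C1q subunit genes lie side by side on chromosome 4, in the order C1qb, C1qc, C1qa among protein-coding genes of the mouse reference GRCm38.p6. The promoters of C1qb and C1qc are shown because these neighbours rose together in the arrays. They are taken from RefSeq, GRCm38.p6, as the 250 bases before each gene's start, read 5′ to 3′ on the gene's own strand, and the capitals mark GAGGAA, the purine box of PU.1 type motifs, or its reverse complement TTCCTC.
C1qb, chr4:136886201-136886450, minus strand: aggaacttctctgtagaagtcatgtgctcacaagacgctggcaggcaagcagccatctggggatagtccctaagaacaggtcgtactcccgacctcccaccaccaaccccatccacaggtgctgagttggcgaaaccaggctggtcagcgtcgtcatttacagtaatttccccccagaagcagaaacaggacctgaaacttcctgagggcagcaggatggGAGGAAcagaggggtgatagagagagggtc
C1qc, chr4:136892915-136893164, minus strand: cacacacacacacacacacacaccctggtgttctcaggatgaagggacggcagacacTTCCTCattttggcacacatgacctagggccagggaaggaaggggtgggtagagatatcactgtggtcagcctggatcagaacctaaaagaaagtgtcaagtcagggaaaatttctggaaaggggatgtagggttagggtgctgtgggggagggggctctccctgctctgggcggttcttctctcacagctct
The match in C1qb runs from 30 to 25 bases before the start on the gene's own strand, and that in C1qc runs from 193 to 188 bases before the start on the opposite strand. Of all 32851 promoters in the table, 23.3% hold this motif in the same window, so a match is common and is given as a description. Of the 9 genes, 6 had a promoter in the table: C1qb, C1qc, C1ra, C3, C3ar1 and C5ar1. Among these 6 the purine box matched only C1qb and C1qc, and so not C3ar1. The interferon response element core GAAANNGAA, or TTCNNTTTC on the other strand, is in 7.1% of all promoters and matched only C5ar1 among these 6, from 66 to 58 bases before the start on the opposite strand. Neither TTCNNNGAA, a STAT motif that reads the same on both strands and is in 7.0% of promoters, nor the NF-kB like GGGNNTTCC, or GGAANNCCC on the other strand, in 5.0%, matched any of the 6.

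Bulbectomy raised all 3 C1q genes about 2-fold, in both liposome groups. C4a/C4b and the receptor gene C3ar1 rose as well in Lip-O mice. C1ra, Cfb and C5ar1 did not pass in any comparison. In Lip-O mice 5 of the 8 features rose, against 10.6% of all features, and in Lip-C mice 3 of 8 rose, against 10.3%. Over the 8 features the median log2 change of OBX was 0.803 in Lip-O mice, where the median of all features was 0.048, and 0.589 in Lip-C mice, where it was 0.045. In whole tissue, a change in the number of cells of a type and a change in the RNA per cell cannot be told apart.

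C1qa, which encodes the A chain of C1q, had signals of 1076.5, 976.8 and 820.7 in Lip-C OBX mice, against 466.7, 391.5 and 479.6 in Lip-C sham mice. In Lip-O OBX mice it read 1796.6, 950.9 and 907.4, against 764.7, 524.6 and 393.5 in Lip-O sham mice. Every OBX array was above every sham array of the same liposome group, and replicate 1 was the highest of its group in both Lip-O groups. The log2 change was 1.07 ± 0.28 (SE) in Lip-C mice (limma adjusted p = 0.0248) and 1.08 ± 0.28 in Lip-O mice (limma adjusted p = 0.0223).

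C1qb, for the B chain, read 1323.5, 1341.7 and 1070.6 in Lip-C OBX mice and 601.9, 579.4 and 563.8 in Lip-C sham mice. Its signals were 1869.1, 1299.5 and 1074.4 in Lip-O OBX mice and 991.0, 717.7 and 487.7 in Lip-O sham mice. The 3 Lip-C sham arrays were close together, with an SD of 19.2 around a mean of 582, whereas the Lip-O sham arrays had an SD of 252 around 732. OBX raised C1qb by 1.07 ± 0.24 in Lip-C mice (limma adjusted p = 0.0169) and by 0.95 ± 0.24 in Lip-O mice (limma adjusted p = 0.0222). The other C1qb probe sets also rose in Lip-O mice, by 0.65 (1434366_x_at, adjusted p = 0.00741) and 0.89 (1437726_x_at, adjusted p = 0.0134) in a fit of each probe set on its own.

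C1qc, for the C chain, read 1080.2, 1127.1 and 865.1 in Lip-C OBX mice and 506.9, 465.7 and 439.1 in Lip-C sham mice. It read 1658.2, 1262.1 and 969.9 in Lip-O OBX mice and 799.9, 461.3 and 477.2 in Lip-O sham mice. Again no OBX array overlapped the sham arrays of its liposome group. C1qc had the smallest adjusted p of the 8 features in both comparisons, with a log2 change of 1.09 ± 0.23 in Lip-C mice (limma adjusted p = 0.0123) and 1.15 ± 0.23 in Lip-O mice (limma adjusted p = 0.00759).

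C4a/C4b covers C4b, the complement component that C1s cleaves to start deposition on a target, and C4a, its neighbouring copy, which RefSeq lists as a transcribed pseudogene. The probe set cannot divide the signal between them. It read 497.4, 553.8 and 427.1 in Lip-C OBX mice and 348.2, 316.4 and 333.7 in Lip-C sham mice. In Lip-O OBX mice it read 700.6, 513.2 and 383.6, against 332.0, 251.2 and 262.8 in Lip-O sham mice. The groups were separate in both liposome treatments. The log2 change of 0.85 ± 0.19 passed in Lip-O mice (limma adjusted p = 0.0125), and that of 0.54 ± 0.19 in Lip-C mice did not (limma adjusted p = 0.0702).

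C3ar1, which encodes the receptor for C3a, read 160.5, 156.5 and 171.5 in Lip-C OBX mice and 121.9, 80.7 and 97.3 in Lip-C sham mice. It read 292.4, 154.7 and 190.1 in Lip-O OBX mice and 150.4, 98.0 and 102.5 in Lip-O sham mice. The OBX arrays lay above the sham arrays in both treatments, in Lip-O mice by a narrow margin between Lip-O OBX replicate 2 and Lip-O sham replicate 1. The change was 0.64 ± 0.22 in Lip-C mice (limma adjusted p = 0.064) and 0.76 ± 0.22 in Lip-O mice (limma adjusted p = 0.0345). Its other probe sets differed less between Lip-O OBX and Lip-O sham arrays and did not pass, at 0.29 (1419482_at, adjusted p = 0.388) and 0.49 (1419483_at, adjusted p = 0.146), each fitted on its own.

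**Figure D1:**
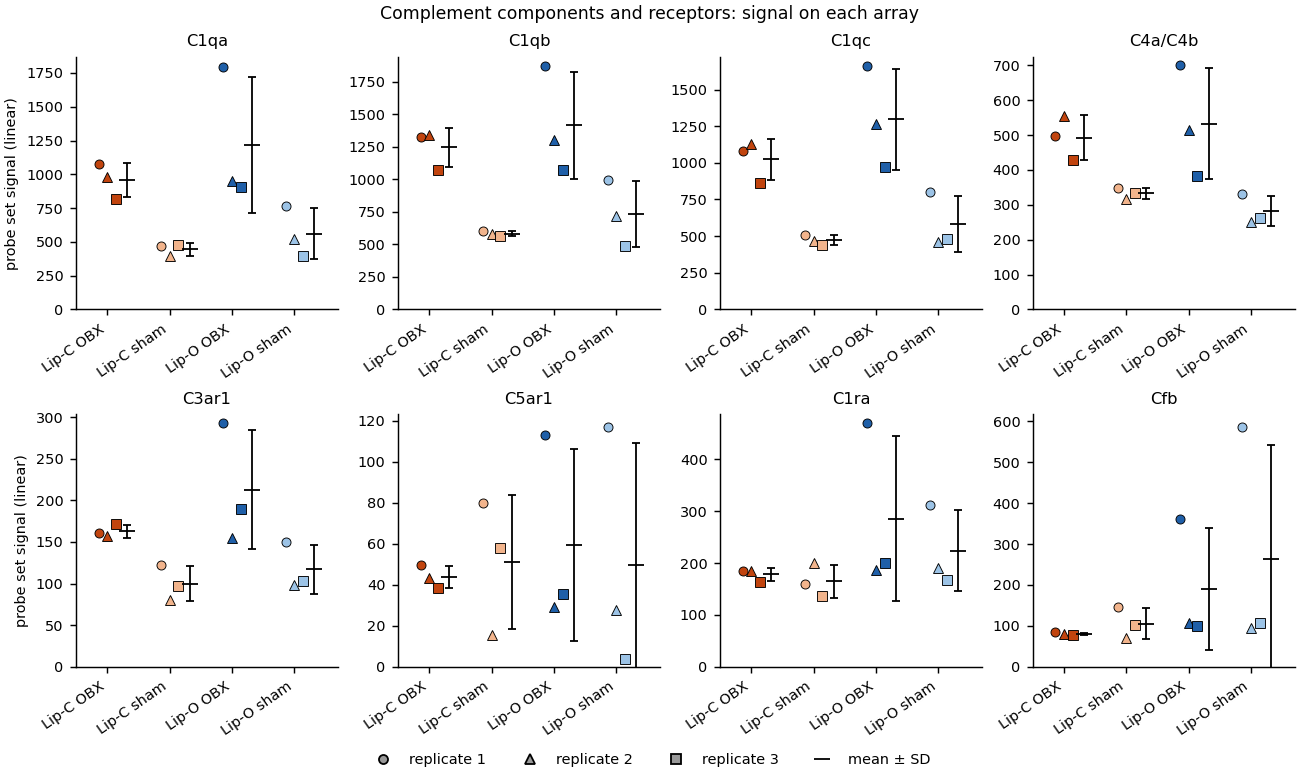
Probe set signal (linear axis from 0) of the 8 complement features on each array of the 4 groups, with replicates 1 to 3 as circle, triangle and square and the bar beside them the group mean ± SD (n = 3), cut at 0 where it would pass below. The 3 C1q genes sit higher in both OBX groups than in the sham group of the same liposomes, while Cfb, C1ra and C5ar1 are high mainly on the replicate 1 arrays of Lip-O mice.

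The 5 genes that rose in Lip-O mice each had all 3 OBX arrays above all 3 sham arrays, which held for 21.4% of all features in that direction. The same 5 were separate in Lip-C mice, where it held for 23.2%. Over both liposome groups, C1qa, C1qb, C1qc, C4a/C4b and C3ar1 rose with bulbectomy as a main effect, 5 of 8 against 19.0% of all features. Each of the 5 also had all 6 OBX arrays above all 6 sham arrays, which held for 5.51% of all features. The gap was narrowest in C3ar1, between 154.7 on its lowest OBX array and 150.4 on its highest sham array. The C3ar1 separation held only on the probe set used to read the gene. On its probe set 1419482_at the lowest OBX array read 120.6 and the highest sham array 151.4. On 1419483_at these arrays read 108.0 and 127.5.

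The main effect of bulbectomy was 1.07 ± 0.19 for C1qa (limma adjusted p = 0.00263), 1.01 ± 0.17 for C1qb (0.00202) and 1.12 ± 0.16 for C1qc (0.000918), all on the log2 scale. It was 0.69 ± 0.13 for C4a/C4b (limma adjusted p = 0.00355) and 0.70 ± 0.15 for C3ar1 (0.00693). In folds, that is 2.11 for C1qa and 2.17 for C1qc. These main-effect calls held in each of the 12 fits that left out 1 array, with 5 of 8 features called each time. The other C3ar1 probe sets were each fitted on their own. There 1419483_at passed at 0.55 (limma adjusted p = 0.0233), and 1419482_at did not, at 0.33 (0.141).

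The counts within 1 liposome group rested on fewer arrays. In Lip-O mice the count fell to 2 of 8 when Lip-O OBX replicate 1, Lip-O sham replicate 2 or Lip-O sham replicate 3 was omitted. C1qc and C4a/C4b passed in all 12 of those fits, whereas C1qa and C1qb missed in the 3 named, with adjusted p up to 0.08 and 0.082. C3ar1 missed in those 3 and without Lip-O OBX replicate 3, with adjusted p up to 0.11. C3ar1 also missed with no filter on dim probe sets (0.0571), quantile normalization (0.0545), all its probe sets averaged (0.0917) or no moderation (0.0662). In Lip-C mice no feature passed without Lip-C OBX replicate 1, and 1 passed without Lip-C OBX replicate 2, Lip-C sham replicate 2 or Lip-C sham replicate 3. C1qa in Lip-C mice had an adjusted p of 0.0528 without moderation. In Lip-C mice 5 passed without Lip-O OBX replicate 1, which enters only through the shared estimate of the spread.

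Macrophage and monocyte markers moved in the same comparisons. Of 14 tested, 8 rose with OBX in Lip-C mice and 3 in Lip-O mice, where 10.3% and 10.6% of all features rose. The summed signal of the 14 ran from 14613.5 to 20110.5 in Lip-C OBX, 9006.4 to 14788.9 in Lip-C sham, 14289.1 to 24908.5 in Lip-O OBX and 10288.5 to 19546.2 in Lip-O sham mice. None of the defining markers was at 0. The sum is weighted towards the brightest probe sets, with Lyz2 alone at 4037.6 to 10892.2. Cd68, a lysosomal protein of macrophages, rose by 1.46 ± 0.25 in Lip-C mice (limma adjusted p = 0.00697) and 1.16 ± 0.25 in Lip-O mice (0.0118). Cd68 read 655.5 to 1312.4 on the OBX arrays and 307.3 to 566.4 on the sham arrays, with no overlap. Markers of the supporting cells moved as well. Of 7 tested for sustentacular cells and Bowman glands, 3 rose with OBX in Lip-C mice (Cyp1a2, Sox9 and Aqp5, by 0.47 to 0.76). In Lip-O mice 4 rose (the same and Muc2, by 0.55 to 0.90). These counts stand beside the same 10.3% and 10.6% of all features. The summed signal of the 7 was 44942.7 to 60035.8 in Lip-C OBX, 34233.4 to 37170.1 in Lip-C sham, 52312.9 to 62837.6 in Lip-O OBX and 40625.3 to 64613.7 in Lip-O sham mice. The overlap of the Lip-O sums comes from Bpifb9b alone. That gene read 3435.9 to 12982 in Lip-O OBX and 2849.5 to 26246.7 in Lip-O sham mice. The part of either cell type in the changes of the complement genes was not tested.

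**Figure D2:**
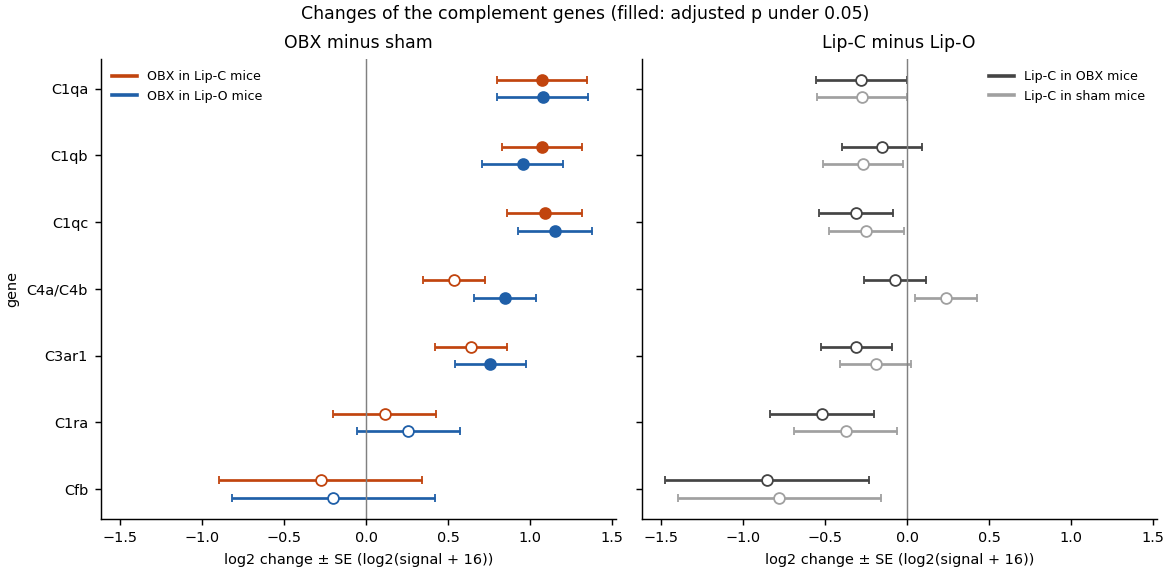
Log2 change ± SE of 7 complement features on the log2(signal + 16) scale: on the left OBX minus sham in Lip-C and in Lip-O mice, on the right Lip-C minus Lip-O in OBX and in sham mice, with filled points where the limma adjusted p was under 0.05. The C1q genes lie near 1 on the left in both liposome groups, and no point on the right is filled. C5ar1 is left out because all its group means were below the 40th percentile of the arrays.

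For C1ra, Cfb and C5ar1 no difference with bulbectomy exceeded the spread between arrays. C1ra, which encodes the protease C1r that activates C1s, read 185.6, 185.4 and 163.0 in Lip-C OBX and 159.5, 199.5 and 136.0 in Lip-C sham mice. It read 469.4, 186.8 and 200.9 in Lip-O OBX and 312.4, 191.2 and 167.8 in Lip-O sham mice. The replicate 1 array stood above the rest of its group in both Lip-O groups, and the groups overlapped. The main effect of bulbectomy on C1ra was 0.19 ± 0.22 (limma adjusted p = 0.556, 95% interval -0.31 to 0.68). A further probe set, shared by C1ra and its near-identical copy C1rb, read 92.6, 76.8 and 88.6 in Lip-C OBX and 64.8, 61.6 and 75.8 in Lip-C sham mice. On that probe set Lip-O OBX mice had 143.6, 68.7 and 116.5 and Lip-O sham mice 162.3, 102.9 and 127.8.

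Cfb, for factor B of the alternative pathway, had signals of 83.9, 80.3 and 78.3 in Lip-C OBX and 145.0, 69.4 and 101.4 in Lip-C sham mice. In Lip-O OBX mice it read 361.6, 107.9 and 98.8, and in Lip-O sham mice 586.6, 94.9 and 105.8. The replicate 1 arrays of both Lip-O groups carried 3.35 and 5.54 times the next highest signal of their own group. The main effect of bulbectomy was -0.24 ± 0.44 (limma adjusted p = 0.709), with a 95% interval of -1.21 to 0.73 that includes changes of either sign.

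C5ar1, for the receptor of C5a, was dim. It read 49.4, 43.1 and 38.6 in Lip-C OBX, 80.1, 15.4 and 57.8 in Lip-C sham, 113.2, 29.0 and 35.4 in Lip-O OBX and 116.7, 27.7 and 3.8 in Lip-O sham mice. All group means were below the arrays' 40th percentile, so no fold is given, and no difference was detectable at this signal. The other C5ar1 probe set exceeded the percentile on only 2 arrays and was not tested.

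The same Lip-O replicate 1 arrays were high in Cd14, a co-receptor for bacterial lipopolysaccharide on monocytes and macrophages, picked from the marker list after its values were seen. Cd14 read 2007.3 on Lip-O OBX replicate 1 and 4955.1 on Lip-O sham replicate 1, against 489.8 to 1783 on the other 10 arrays. The third highest array in both Cfb and Cd14 was Lip-C sham replicate 1. What these arrays share beyond the replicate number was not tested.

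**Figure D3:**
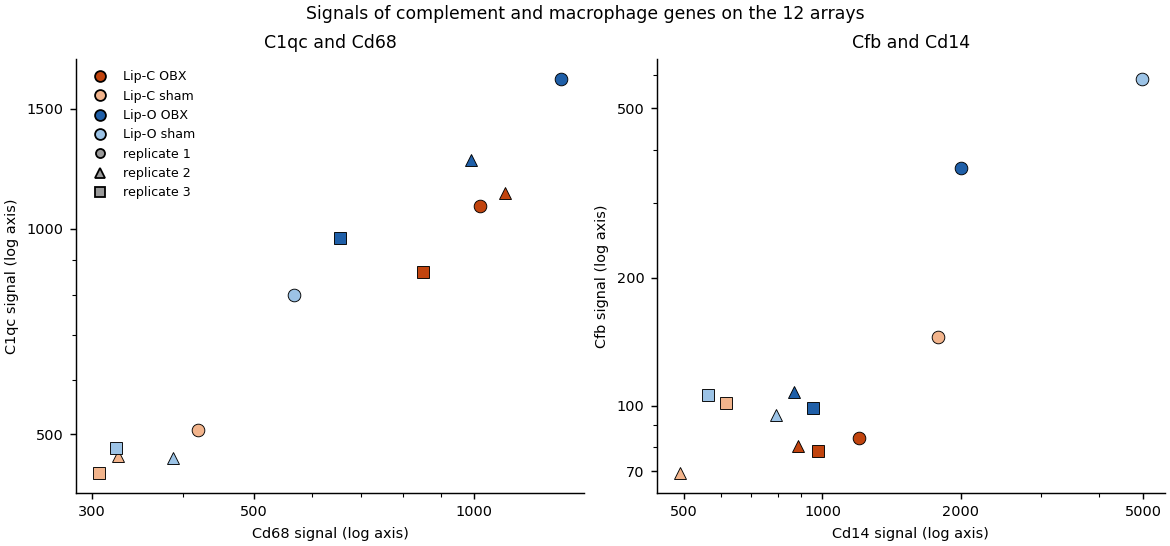
Signals of C1qc against Cd68 (left) and of Cfb against Cd14 (right) on the 12 arrays, on log axes, with the group as colour and the replicate as shape. In the left panel the OBX arrays lie above and to the right of the sham arrays, and in the right panel the replicate 1 arrays of Lip-O OBX and Lip-O sham mice stand apart at Cd14 signals of 2007.3 and 4955.1.

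Across the 12 arrays, which share group structure, the 3 C1q genes followed each other closely, with Pearson r of log2 signal between 0.965 and 0.983 for their pairs. C3ar1 had r of 0.89 to 0.941 with the C1q genes and C4a/C4b 0.889 to 0.913. Cfb had only 0.288 to 0.351 with them, but 0.782 with C1ra and 0.71 with C5ar1. Cfb, C1ra and C5ar1 were each highest on the replicate 1 arrays of the Lip-O groups, and r without those arrays was not computed. These values are descriptions and carry no test.

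Genes outside the set that were most like it were ranked by the same measure over the 12 arrays. For the mean of the C1q genes they were Tmc4 (r = 0.985), Cd68 (0.971), Arpc5 (0.969), Tspan1 (0.966) and Mydgf (0.961). For C4a/C4b they were Mylip (0.953), Axl (0.948), Piezo1 (0.943), Fbxo32 (0.941) and Capns1 (0.94). For C3ar1 they were Acadl (0.953), Anxa7 and Arfgap3 (both 0.942), Tnfrsf1a (0.939) and Vmp1 (0.937). A difference between the groups that genes share enters each of these r values.

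None of the 8 features passed a comparison of clodronate with empty liposomes. None passed between Lip-C and Lip-O mice after sham surgery, where 2.13% of all features did in either direction, or after bulbectomy, where 0.341% did. None passed as a main effect of Lip-C either, against 1.58%. In each of these limma comparisons 0 of the 8 had an unadjusted p under 0.05, and an ordinary linear model without moderation also called 0. The further probe set shared by C1ra and C1rb was lower on every Lip-C sham array (61.6 to 75.8) than on every Lip-O sham array (102.9 to 162.3). In the fit over all features this difference in sham mice did not pass (limma adjusted p = 0.0718), but did without Lip-O OBX replicate 2 (0.0348). The mean of this probe set in Lip-C sham mice was under the 40th percentile. These comparisons share arrays with those of bulbectomy, so their values are set side by side and not correlated.

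In sham mice the Lip-C minus Lip-O difference was -0.28 for C1qa, -0.27 for C1qb, -0.25 for C1qc, -0.19 for C3ar1 and 0.24 for C4a/C4b on the log2 scale. In OBX mice it was -0.28, -0.15, -0.31, -0.31 and -0.08 for the same genes in that order. As a main effect it was -0.28 ± 0.19 for C1qa, with a 95% interval of -0.71 to 0.15, and -0.28 ± 0.16 for C1qc, with an interval of -0.64 to 0.08. The C1q intervals include both a fall and no change. Cfb had the largest point estimate, -0.82 ± 0.44 (limma adjusted p = 0.385). Without Lip-O OBX replicate 1 and Lip-O sham replicate 1 together, an alternative added after the values were seen, the main-effect difference was 0.0016 for C1qa, 0.02 for C1qb and -0.06 for C1qc.

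Whether bulbectomy acted differently in depleted mice was tested as an interaction, the OBX change in Lip-C mice minus that in Lip-O mice. It was -0.0028 ± 0.39 for C1qa, 0.12 ± 0.35 for C1qb, -0.06 ± 0.32 for C1qc, -0.31 ± 0.27 for C4a/C4b and -0.12 ± 0.31 for C3ar1. The limma adjusted p was 0.998, 0.895, 0.942, 0.581 and 0.882 for these genes in that order. The 95% intervals ran from -0.87 to 0.86 for C1qa, -0.65 to 0.88 for C1qb, -0.78 to 0.65 for C1qc, -0.90 to 0.28 for C4a/C4b and -0.80 to 0.56 for C3ar1. The intervals of the 3 C1q genes do not reach the size of their main effect of bulbectomy in either direction, but include smaller differences of both signs. No feature of the array passed (0% called), although 2476 of the 14059 had an unadjusted p under 0.05. So the missed calls of C4a/C4b and C3ar1 in Lip-C mice are not shown to differ from their calls in Lip-O mice.

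The rest of the system was followed in lists of 48 other complement genes, of which 24 were tested. With OBX, 8.72% of all features fell in Lip-C mice and 8.82% in Lip-O mice, beside the 10.3% and 10.6% that rose. Among 8 initiators, proteases and terminal components, 1 rose with OBX in Lip-C mice and none in Lip-O mice, where 1 had an unadjusted limma p under 0.05. Among 9 regulators, 3 rose and 2 fell with OBX in Lip-C mice, and 3 rose and 1 fell in Lip-O mice. Among 7 receptors, 1 rose in each liposome group. The 1 of 8 and 1 of 7 are near the share of all features that rose. Lip-C in sham mice lowered 1 of the 24, against 0.832% of all features. The median log2 change with OBX was 0.055, 0.191 and 0.474 for the lists in this order in Lip-C mice and 0.192, 0.065 and 0.071 in Lip-O mice.

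C9, the component that polymerises into the membrane pore, had the largest difference with clodronate of the 24. It read 289.0, 282.7 and 288.8 in Lip-C OBX and 91.0, 168.4 and 179.7 in Lip-C sham mice. It read 663.5, 1027.1 and 600.2 in Lip-O OBX and 922.9, 578.4 and 671.8 in Lip-O sham mice. All 6 Lip-C arrays lay below all 6 Lip-O arrays, a separation whose share among all features was not counted. As a main effect C9 fell by 1.77 ± 0.18 on the log2 scale with Lip-C, a 3.41-fold lower level (limma adjusted p = 0.00199), in 12 of 12 fits that left out 1 array.

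In sham mice the fall of C9 was -2.21 ± 0.26 (limma adjusted p = 0.00695), and in OBX mice the difference was -1.33 ± 0.26 (limma adjusted p = 0.0784, or 0.0415 without Lip-C sham replicate 1). The difference between these values, the interaction, was 0.89 (limma adjusted p = 0.248). OBX in Lip-C mice raised C9 by 0.95 (limma adjusted p = 0.0311), a call lost without any 1 of 5 of the 6 Lip-C arrays (all but Lip-C sham replicate 3), with no filter (0.0523) or without moderation (0.0613). C9 is known as a product of the liver, and liver markers were read beside it. OBX in Lip-O mice raised 3 of 4 tested, against 10.6% of all features, while C9 changed by 0.06 (limma adjusted p = 0.893). Lip-C in sham mice lowered 0 of the 4, against 0.832% of all features, and 1 had an unadjusted limma p under 0.05. Lip-C in OBX mice lowered 1 of the 4, against 0.22%. The summed signal of 4 tested liver markers was 161.6 to 250.1 in Lip-C OBX, 104.3 to 166.3 in Lip-C sham, 428.8 to 1924.3 in Lip-O OBX and 142.8 to 161.2 in Lip-O sham mice. Alb, for serum albumin, read 526.6, 1184.3 and 151.3 in Lip-O OBX mice and at most 52.2 elsewhere. C9 averaged 764 ± 230.4 in Lip-O OBX mice and 724 ± 178 in Lip-O sham mice (SD, n = 3 each). The part of liver RNA in the C9 values was not tested.

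Among soluble regulators, Cfi and Clu rose and Cpn1 fell in both liposome groups. Cfi, for factor I, which inactivates C3b and C4b, read 340.8, 202.6 and 216.8 in Lip-C OBX against 151.1, 111.7 and 132.9 in Lip-C sham mice. It read 444.9, 269.1 and 254.2 in Lip-O OBX against 171.0, 129.4 and 108.9 in Lip-O sham mice. The rise was 0.84 ± 0.25 in Lip-C mice (limma adjusted p = 0.0392, lost with adjusted p up to 0.14 without Lip-C OBX replicate 1 or 2, any Lip-C sham array or Lip-O sham replicate 2, and also with no filter, quantile normalization or no moderation) and 1.13 ± 0.25 in Lip-O mice (0.0116). Clu, for clusterin, which restrains the terminal complex, rose by 0.57 ± 0.14 in Lip-C mice (limma adjusted p = 0.021) and 0.61 ± 0.14 in Lip-O mice (0.0136). The Clu call was lost without Lip-C OBX replicate 1 or 2 or Lip-C sham replicate 2 or 3, or with quantile normalization, in Lip-C mice (up to 0.0699), and without Lip-O OBX replicate 1 or Lip-O sham replicate 3 in Lip-O mice (up to 0.0559). Cpn1, for the small subunit of carboxypeptidase N, which inactivates C3a and C5a, fell by 0.99 ± 0.23 in Lip-C mice (limma adjusted p = 0.0166) and by 1.77 ± 0.23 in Lip-O mice (0.00143). Cpn1 read 94.6 to 142.7 in Lip-C OBX against 211.1 to 276.4 in Lip-C sham mice, and 60.4 to 130.3 in Lip-O OBX against 297.6 to 332.9 in Lip-O sham mice. In Lip-C mice the Cpn1 call was lost without Lip-C OBX replicate 1 or 2 or Lip-C sham replicate 2 (up to 0.0642).

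Serping1, for the inhibitor of C1r and C1s, rose as a main effect by 0.44 ± 0.14 (limma adjusted p = 0.037), and C1s1, for the protease C1s, by 0.55 ± 0.19 (0.0446). Both main-effect calls were lost without replicate 1 or 2 of Lip-C OBX, replicate 1 or 2 of Lip-O OBX, Lip-C sham replicate 2, or Lip-O sham replicate 2 or 3, and that of C1s1 also without replicate 1 of Lip-C sham. Both were also lost with no filter and without moderation, and C1s1 with quantile normalization. The adjusted p reached 0.0851 for Serping1 and 0.104 for C1s1.

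Lrp1, a receptor that also takes up C1q-tagged material, rose by 0.60 ± 0.16 in Lip-C mice (limma adjusted p = 0.0277) and 0.67 ± 0.16 in Lip-O mice (0.0165). The Lrp1 call was lost without Lip-C OBX replicate 1 or 2 or Lip-C sham replicate 2 or 3, or without moderation, in Lip-C mice (adjusted p up to 0.104), and without Lip-O OBX replicate 1 or Lip-O sham replicate 2 or 3 in Lip-O mice (up to 0.0659). Itgb2, the beta chain of complement receptors 3 and 4, had a main-effect difference of 0.32 with OBX and 0.36 with Lip-C, and neither passed. Itgam, its partner in complement receptor 3, read only 44.1 to 135.5 on the 12 arrays. Cfp, for properdin, which stabilises the alternative pathway's convertase, read 73.9 to 185.2. Cfd was not analysed here, as the annotation used pairs no probe set with it alone. Hc, the mouse gene for C5, had a probe set that did not exceed the 40th percentile on enough arrays to be tested.

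Membrane regulators gave mixed results. Cd59a, which blocks the membrane pore, read 782.3, 644.7 and 651.2 in Lip-C OBX against 594.7, 540.9 and 680.0 in Lip-C sham mice, and 893.1, 837.4 and 968.4 in Lip-O OBX against 461.8, 520.7 and 512.1 in Lip-O sham mice. It rose by 0.83 ± 0.11 in Lip-O mice (limma adjusted p = 0.00154), and its change in Lip-C mice was 0.19 (0.236). With all its probe sets averaged the Cd59a change in Lip-C mice was 0.35 and passed (adjusted p = 0.0178). The interaction was -0.64 ± 0.15 (limma adjusted p = 0.102). Susd4, a membrane protein reported to inhibit complement, read 480.1, 540.8 and 602.6 in Lip-C OBX against 937.7, 1177.5 and 884.7 in Lip-C sham mice, and it fell by 0.86 ± 0.16 (limma adjusted p = 0.00767). In Lip-O mice the Susd4 difference was -0.04 (limma adjusted p = 0.884), with an interaction of -0.82 ± 0.22 (0.122). The Susd4 interaction passed without Lip-O OBX replicate 2, at -0.98 (0.0461).

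Cd55, which speeds the decay of the convertases, read 1660.9, 1564.6 and 1213.3 in Lip-C OBX mice and 973.8, 1042.4 and 1084.0 in Lip-C sham mice. In Lip-O OBX mice it read 1002.8, 1192.6 and 979.1, against 1328.2, 1796.8 and 1260.3 in Lip-O sham mice. OBX arrays lay above sham arrays with Lip-C and below them with Lip-O. The change was 0.50 ± 0.15 in Lip-C mice (limma adjusted p = 0.0447, lost in 8 of 12 fits without 1 array, with adjusted p up to 0.155). It held without Lip-C OBX replicate 3, Lip-O OBX replicate 2, Lip-O sham replicate 2 or Lip-O sham replicate 3. The Lip-C call of Cd55 was also lost with no filter (0.0738), without moderation (0.0732) and with all its probe sets averaged, where the change was 0.29 (0.152). In Lip-O mice the Cd55 change was -0.45 ± 0.15 (limma adjusted p = 0.0641), and with the replicate number as a block it passed (adjusted p = 0.0392). The Lip-O difference of Cd55 also passed without Lip-C OBX replicate 3 (adjusted p = 0.043) and, at -0.65, with all its probe sets averaged (adjusted p = 0.00897). The interaction for Cd55 was 0.95 ± 0.22 (limma adjusted p = 0.0931).

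**Figure D4:**
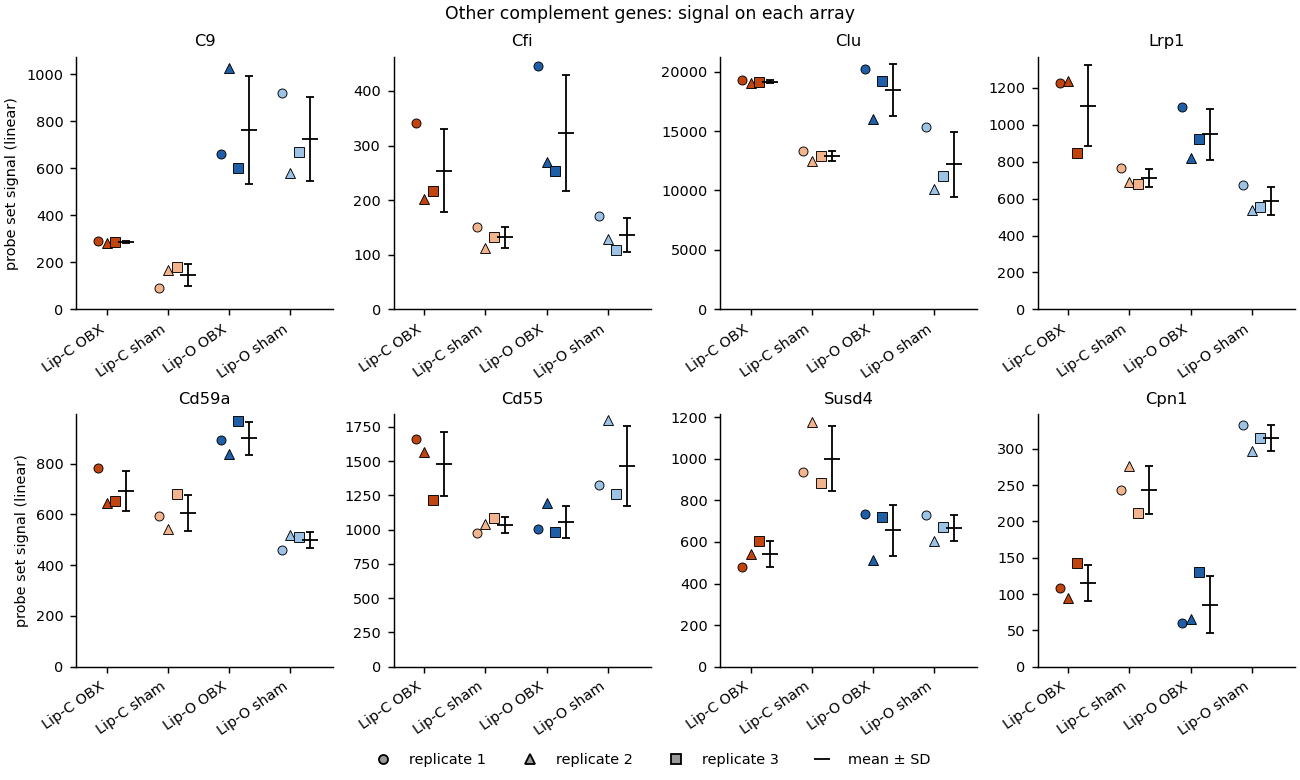
Probe set signal (linear axis from 0) of 8 other complement genes on each array, drawn as for the complement features, with group mean ± SD (n = 3). C9 is lower on all 6 Lip-C arrays than on the Lip-O arrays, Cfi, Clu and Lrp1 are higher and Cpn1 is lower in both OBX groups, and the OBX arrays of Cd55 lie above the sham arrays in Lip-C mice and below them in Lip-O mice.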

How the data were processed

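Signals are intensities deposited by the authors, 1 value per probe set and array, on a linear scale. No source used here gives the algorithm, and the values have a trimmed mean of 500.0 on every array, so they had been scaled. Total depth has no meaning here, and precision is limited by the number of arrays. Of 45101 probe sets, 64 controls were left out, 34958 had 1 gene and 932 several in the platform annotation. Probe sets whose signal exceeded the 40th percentile of the array on 3 or more arrays were kept (28986), and a gene was read by its brightest one. No further scaling was applied, and log2(signal + 16) was fitted for the 4 groups with limma 3.58.1 in R 4.3.3 (8 residual and 2.53 prior degrees of freedom), with Benjamini-Hochberg adjustment over 14059 features, 431 of them shared by several genes.

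The main effects average the 2 within-group contrasts, and the interaction is their difference. An exact permutation test of 3 against 3 arrays cannot go below p = 0.1. The labels call the replicates biological, without saying whether mice were pooled. For OBX in Lip-O mice, same-numbered arrays deviated together (r = 0.315, 0.271 and 0.141). Every such pair exceeded 0.1, the limit set for reading these numbers as a pairing. The main fit did not use the pairing, and values are from that fit unless a block is named. The replicate number was also fitted as a block across all groups, Lip-C arrays included. With this block the limma adjusted p in Lip-O mice was 0.00729 for C1qa, 0.0061 for C1qb and 0.00275 for C1qc. It was 0.00731 for C4a/C4b and 0.00829 for C3ar1. The pairing comes from the data and not from the labels. The other comparisons had pairs under that limit.

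Named genes were all 9 members, each other complement gene that passed, 8 further complement genes whatever their values, and the 5 most alike by Pearson r. Members and lists were chosen with earlier results of these data known. Marker lists covered macrophages and monocytes, neutrophils, liver, fibroblasts, endothelium, mature olfactory sensory neurons, sustentacular cells with Bowman glands, and interferon response genes. The pipeline was tested on simulated data. Alternatives were the pseudocount, the filter, quantile normalization, averaging of all probe sets per gene, no moderation, the replicate block and leaving out arrays. Promoters are RefSeq's.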

Additional observations from a re-analysis of the deposited data

Results flagged for a closer look

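Cd55, a membrane regulator that speeds the decay of the complement convertases, had OBX arrays on opposite sides of the sham arrays in the 2 liposome groups. All 3 Lip-C OBX arrays lay above all 3 Lip-C sham arrays, while all 3 Lip-O OBX arrays lay below all 3 Lip-O sham arrays. The OBX change in Lip-C mice minus that in Lip-O mice was 0.9478 on the log2 scale, with a limma adjusted p of 0.0931 for this interaction, which did not pass. The Lip-O difference did not pass either (adjusted p = 0.0641), and the Lip-C rise was lost in 12 of 19 other settings. The same arrays give the same value, 0.9478, for Lip-C against Lip-O in OBX mice minus Lip-C against Lip-O in sham mice.

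Cd59a, which blocks the membrane pore, was lower on every Lip-C OBX array than on every Lip-O OBX array, and higher on every Lip-C sham array than on every Lip-O sham array. The difference between these contrasts was -0.6412, with a limma adjusted p of 0.102. None of the 8 measured complement features had arrays on opposite sides as Cd55 and Cd59a did. The share of all features with such opposite separations was not counted, so how unusual they are is not known. Groups of 3 arrays were too small to be searched for outlying arrays.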

How the results depend on the processing

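Of 32 gene results past the threshold, none changed sign in any of 19 other settings, and 14 stayed past it in all of them. In Lip-C mice, members that rose with OBX numbered 3; with the replicate block they were 5, with C3ar1 at adjusted p = 0.0173 and C4a/C4b at 0.0389. Without Lip-O OBX and Lip-O sham replicate 1 together, a setting chosen after seeing the data, they were also 5. The block changed no call of a member in Lip-O mice, and with it the probe set shared by C1ra and C1rb passed for Lip-C in sham mice (0.0388). Leaving out 1 array gave 2 to 5 members in Lip-O mice and 0 to 5 in Lip-C mice, and always 5 for the main effect of OBX and 0 for Lip-C and the interaction.

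Signs turned only in results that did not pass. With a pseudocount of 1 the C1qa interaction was 0.0011, and with all probe sets of a gene averaged the C3ar1 interaction was 0.0235. Without both Lip-O replicate 1 arrays, Lip-C in OBX mice was 0.0351 for C1qa, 0.0673 for C1qb and 0.1382 for C4a/C4b, Lip-C in sham mice was 0.0017 for C1qc, the Lip-C main effect was 0.0016 for C1qa and 0.0212 for C1qb, and the C1qa interaction was 0.0669. Without 1 array the ranges over 12 fits were -0.45 to 0.035 for C1qa (Lip-C in OBX mice), -0.25 to 0.31 for C1qa (interaction), -0.33 to 0.067 for C1qb (Lip-C in OBX mice), -0.13 to 0.37 for C1qb (interaction), -0.39 to 0.0017 for C1qc (Lip-C in sham mice), -0.31 to 0.13 for C1qc (interaction), -0.017 to 0.31 for C1ra (OBX main effect). They were -0.31 to 0.12 for C3ar1 (interaction), -0.28 to 0.14 for C4a/C4b (Lip-C in OBX mice), -0.024 to 0.19 for C4a/C4b (Lip-C main effect), -0.17 to 0.25 for C9 (OBX in Lip-O mice), -0.52 to 0.16 for Cfb (OBX main effect) and -0.13 to 0.12 for Susd4 (OBX in Lip-O mice). The cause was not tested.

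Calls over all features moved by more than 1.5 times in many settings, most often for the Lip-C main effect and for Lip-C in sham mice. Lip-C in sham mice had 299 calls, against 59 without the filter and 18 to 327 without 1 array. Lip-C in OBX mice had 48, against 7 without moderation and 7 to 75 without 1 array. The Lip-C main effect had 222, against 111 without the filter, 129 without moderation and 87 to 254 without 1 array. The interaction had 0, against 177 without Lip-O OBX replicate 2. The OBX counts were 2731 in Lip-O mice (1424 to 2831 without 1 array, and 781 without both Lip-O replicate 1 arrays) and 2670 in Lip-C mice (849 to 3107). Signal near the 40th percentile limits C5ar1 and the probe set shared by C1ra and C1rb.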

Other observations

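Among the other genes on the complement lists, a pair of recognition molecules that start the lectin pathway ran opposite ways with clodronate; both were picked after their values were seen, and neither passed. Fcnb, for ficolin B, which myeloid cells make in the mouse, read 171.0, 170.1 and 116.7 in Lip-C OBX and 96.3, 105.1 and 144.6 in Lip-C sham mice, against 50.3, 75.9 and 14.2 in Lip-O OBX and 61.9, 95.7 and 71.5 in Lip-O sham mice. All 6 Lip-C arrays were above all 6 Lip-O arrays (limma adjusted p = 0.0667 for the Lip-C main effect). The Fcnb mean in Lip-O OBX mice, 46.8, was under the 40th percentile. Mbl2, for a mannose-binding lectin, read 559.8 to 742.0 on the Lip-C arrays and 773.0 to 1239.6 on the Lip-O arrays, also without overlap (limma adjusted p = 0.0979). The share of all features with Lip-C and Lip-O arrays separated in this way was not counted. The summed signal of 8 tested neutrophil markers was 34568.2 to 59315 in Lip-C OBX, 32164.9 to 48007.7 in Lip-C sham, 28991.6 to 32791.5 in Lip-O OBX and 28688.1 to 38173.4 in Lip-O sham mice. Bright probe sets weigh most in this sum, such as Ltf at 11649.3 to 18324.2 and S100a8 at 5935.6 to 14976.5. As a main effect of Lip-C, 1 of the 8 rose, where 0.761% of all features did. Of the 8, 6 changes were positive and 6 had an unadjusted limma p under 0.05. The median log2 change was 1.113. The part of neutrophils in the Fcnb values was not tested.

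Of 7 tested interferon response genes none passed between Lip-C OBX and Lip-O OBX mice, although all 7 differences were negative and 2 had an unadjusted limma p under 0.05.

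Across the other marker lists, OBX raised 5 of 8 fibroblast markers in Lip-C mice and none in Lip-O mice, where 0 had an unadjusted limma p under 0.05. Of 7 endothelial markers 1 rose in Lip-C mice and 3 in Lip-O mice. Of all features, 10.3% rose in Lip-C mice and 10.6% in Lip-O mice, so the 1 of 7 is near that share. Mature olfactory sensory neuron markers fell with OBX, 3 of 6 in Lip-C mice and 5 of 6 in Lip-O mice, against 8.72% and 8.82% of all features in that order.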
